A study of Mus musculus with 2 samples.

Results

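Mac1 is a macrophage class of the inflamed mouse abdominal aorta, as the study's authors annotated it. All cells that their deposited cell table names Mac1 and places in the library of mice given Lactobacillus casei cell wall extract (LCWE) were taken, which gave 282 of the 5091 cells of that library and of the 10477 cells of the series. LCWE is a bacterial preparation that causes a vasculitis used as a model of Kawasaki disease. Wild-type C57BL/6J mice received LCWE or phosphate-buffered saline (PBS) into the peritoneum, and their abdominal aortas, cut between the left renal artery and the bifurcation, were dissociated with enzymes 2 weeks later. Dead cells were removed, the remaining cells were not sorted by any marker that the labels name, and a 10x Genomics 3′ library was prepared per condition, the LCWE one pooling 7 aortas and the PBS one pooling 9. Neither the age nor the sex of the mice is given in the sources used here.

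Each condition is 1 pooled library, so there is no replicate and no test between conditions. The classes are the authors' clusters of these same cells, so differences between them are described and not tested. A gene's level is given as CPM, the number of its unique molecular identifiers (UMIs, each 1 captured transcript) over the cells of a class divided by all UMIs of that class and multiplied by 1e+06. Ratios carry 95% exact conditional binomial intervals, which cover counting error only and not variation between mice or cells. A gene was called higher or lower at a ratio of 2 or more with the interval wholly beyond 1, among genes with at least 20 UMIs in both classes together.

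Macrophages arise in inflamed vessels largely from blood monocytes that enter the wall and mature there, beside macrophages that resided in the wall before. As monocytes mature they lose transcripts of circulation and adhesion, such as Ly6c2, and gain those of clearance: complement C1q, lipid-sensing receptors and lysosomal enzymes. Conventional dendritic cells, their neighbours in the tissue, take up antigen and present it to T cells on MHC class II. Mac1 is set here mainly against Mono1, the largest monocyte class of the library (281 cells), and DC2, a dendritic cell class (195 cells).

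Mac1 made up 31.1% (95% exact Clopper-Pearson interval 28.1 to 34.2) of the 908 cells in the authors' monocyte, macrophage and dendritic cell classes of the LCWE library. It held 7.00% of the UMIs of that library. The Mac1 cells had between 1950 and 40383 UMIs, with a median of 8775, a median of 2580 genes and a median mitochondrial share of 3.84%. The median was 6857 UMIs in Mono1, 8992 in DC2 and 3986 in the 2198 T and NK cells, which serve below as cells that should lack macrophage genes. The 2 libraries shared 8 cell barcodes, 1 of them on a Mac1 cell.

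The label was checked against C1qa, C1qb, Ms4a7, Trem2 and Mmp12. All 5 were detected in Mac1, and 255 of the 282 cells had at least 3 UMIs of them together, against 51 of 281 Mono1 cells, 14 of 195 DC2 cells and 4 of 2198 T and NK cells. C1qa and C1qb encode chains of C1q, the recognition subunit that starts the classical complement pathway. Ms4a7 is a membrane-spanning protein of macrophages, Trem2 a receptor for lipids and cell debris, and Mmp12 the macrophage elastase, a protease of elastic fibres. These genes name the class, so their levels are a description.

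C1qa stood at 1762 CPM in Mac1, 38.2 in Mono1 and 12.6 in DC2, which is 46.1-fold (37.1 to 58.0) above Mono1 and 139-fold (93.6 to 218) above DC2. C1qb stood at 2281 CPM in Mac1, 76.0 in Mono1 and 14.2 in DC2, a 30.0-fold (25.7 to 35.3) and a 160.5-fold (110.2 to 244) difference. The genes of the 3 C1q chains lie next to each other: C1qa at chromosome 4, 136895917 to 136898803, minus strand, C1qc at chromosome 4, 136889804 to 136893065, minus strand and C1qb at chromosome 4, 136880129 to 136886187, minus strand (GENCODE vM21, GRCm38). C1qc, the remaining chain, stood at 1036, 29.4 and 6.32 CPM in the same order of classes, so all 3 chains were called higher against both. In cells thinned to 2000 UMIs, C1qa was seen in 64.3% of Mac1, 4.27% of Mono1, 1.54% of DC2 and 0.826% of T and NK cells. Without thinning these shares were 72.3%, 9.61%, 3.08% and 1.5%. The thinning left out 2 Mac1 cells, 0 Mono1 and DC2 cells and 18 T and NK cells with fewer UMIs.

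Ms4a7 had 583 CPM in Mac1, 30.8 in Mono1 and 5.26 in DC2, ratios of 18.9 (14.8 to 24.6) and 111 (60.1 to 231). Trem2 had 398, 85.8 and 4.74 CPM, ratios of 4.63 (3.96 to 5.44) and 83.9 (44.1 to 184), so of the markers it came closest to Mac1 in Mono1. Mmp12 had 335, 19.6 and 59.5 CPM, ratios of 17.1 (12.6 to 23.9) and 5.64 (4.64 to 6.91), and was the marker closest to Mac1 in DC2. All 5 markers were called against both classes, where the share of all tested genes called higher was 7.95% against Mono1 and 11.3% against DC2. Since the markers chose the class name, nothing is read from that count.

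The promoters of C1qb, Trem2 and Spp1 (osteopontin, a secreted matrix glycoprotein described further on) are shown as examples. All 3 transcripts were called higher in Mac1 than in Mono1 and DC2, though the ratio of Trem2 over Mono1 is the smallest of the 5 markers. RefSeq's table for GRCm38.p6 held 4 of the 5 markers. Each line gives the 250 bases before the annotated transcription start, read 5′ to 3′ on the gene's strand, and in none of them does a GENCODE exon lie. Capitals mark matches to GAGGAA, a core letter string of the myeloid factor PU.1, to TGCTGA, a core of the MAF family, and to TGANTCA, the AP-1 string, each searched on both strands.
C1qb (chr4:136886201-136886450, minus strand): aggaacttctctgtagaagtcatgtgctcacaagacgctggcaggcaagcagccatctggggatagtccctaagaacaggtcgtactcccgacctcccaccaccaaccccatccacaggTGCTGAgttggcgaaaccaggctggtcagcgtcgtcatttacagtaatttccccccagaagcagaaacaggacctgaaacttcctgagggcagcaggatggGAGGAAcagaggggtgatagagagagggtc
Trem2 (chr17:48346151-48346400, plus strand): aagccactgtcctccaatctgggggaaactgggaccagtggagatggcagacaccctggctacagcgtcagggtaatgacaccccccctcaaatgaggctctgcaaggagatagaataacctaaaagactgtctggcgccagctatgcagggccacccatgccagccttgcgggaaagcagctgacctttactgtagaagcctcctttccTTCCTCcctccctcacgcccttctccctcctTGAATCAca
Spp1 (chr5:104434861-104435110, plus strand): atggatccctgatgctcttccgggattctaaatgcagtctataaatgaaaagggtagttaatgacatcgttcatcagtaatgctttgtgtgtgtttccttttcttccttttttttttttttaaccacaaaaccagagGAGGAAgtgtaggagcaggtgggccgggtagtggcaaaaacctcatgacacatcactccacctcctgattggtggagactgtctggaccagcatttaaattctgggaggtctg
In C1qb the capitals are a TGCTGA at 131 to 126 bases and a GAGGAA at 30 to 25 bases before the start. Trem2 has GAGGAA on the opposite strand, printed as TTCCTC, at 40 to 35 bases and TGANTCA at 9 to 3 bases. Spp1 has GAGGAA at 113 to 108 bases. Windows of Ms4a7 were searched too and are not printed: the first had 0 matches and the other a TGANTCA at 81 to 75 bases. A further Spp1 window, which overlaps an exon, had 0 matches and is not printed either. Such short strings are common: of 32851 promoter windows of the same length in the table, 23.3% hold GAGGAA, 16.1% TGCTGA and 6.75% TGANTCA, and 3.68% hold both GAGGAA and TGCTGA. A match describes the letters and does not show that a factor binds there.

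Across all genes, 743 of 9347 tested were higher in Mac1 than in Mono1 (7.95%) and 373 lower (3.99%), and the median log2 ratio was 0.09. Against DC2, 1051 of 9285 were higher (11.3%) and 457 lower (4.92%), with a median of 0.09. Mac1 was higher than both in 360 genes, which is 48.5% of the genes called against Mono1 and 34.3% of those called against DC2. It was lower than both in 84 genes, 22.5% and 18.4% of the calls. The comparisons share the Mac1 cells, so these overlaps are a count and no more.

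**Figure D1:**
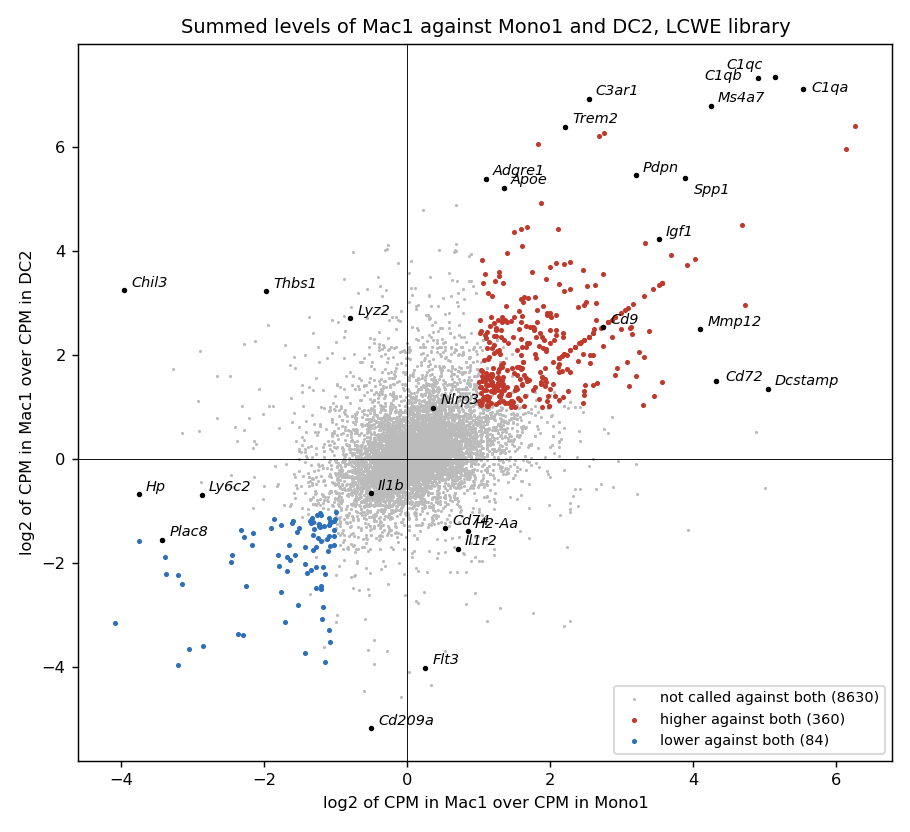
Each point is a gene; the axes give the log2 ratio of its CPM in Mac1 over Mono1 and over DC2, with red for the 360 genes called higher against both, blue for the 84 called lower against both, grey for the others and black for labelled genes. The C1q genes and Ms4a7 lie at the upper right and Plac8 to the far left; the straight diagonal streak is formed by genes at the floor of 3 UMIs in both other classes.

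The genes with the highest ratio over Mono1, besides the C1q chains, Ms4a7 and Mmp12, were Dcstamp, Fcrls, Cdk18, Cd72 and Nes. Dcstamp encodes a membrane protein needed for fusion of macrophages and osteoclasts and had 45.9 CPM in Mac1 against 0.933 in Mono1, a ratio of 49.3 (13.4 to 411). Fcrls, an Fc receptor-like scavenger receptor known from microglia, had 36.8 against 1.40 CPM, a ratio of 26.3 (8.77 to 129.6). Cd72, an inhibitory lectin-like receptor best known on B cells, had 502 against 25.2 CPM, a ratio of 19.9 (15.2 to 26.7). Nes, the intermediate filament nestin, had 22.6 against 0.466 CPM, a ratio of 48.5 (8.42 to 1945), and was carried mainly by sub-cluster 1, described further on. With cells thinned to 2000 UMIs, the calls of Nes and Cdk18 were lost.

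On the other side, Mac1 was lower than Mono1 in transcripts of blood monocytes. Plac8 had 339.9 CPM in Mac1 and 3655 in Mono1, which was 10.8-fold (10.1 to 11.5) higher there. Chil3, a chitinase-like protein, had 30.1 against 467 CPM and Hp (haptoglobin) 42.6 against 573. Of the 8 monocyte genes listed, 7 were lower than in Mono1 and 0 higher, with a median log2 ratio of -3.15. The remaining member, Ccr2, the receptor that draws monocytes out of the marrow, had 323 CPM in Mac1 and 645 in Mono1 and did not reach the ratio of 2, though it did without cells over 10% mitochondrial UMIs. Mac1 still held 69.6 CPM of Ly6c2, against 510.2 in Mono1 and 112 in DC2.

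Against DC2, the genes with the lowest ratios included those that define dendritic cells. Cd209a, a DC-SIGN homologue, had 12.5 CPM in Mac1 and 450.1 in DC2, a 36.0-fold (25.9 to 51.5) difference. Flt3, the receptor for the dendritic cell growth factor, had 7.77 against 125 CPM, and Zbtb46, a transcription factor of conventional dendritic cells, 1.69 against 29. The call of Zbtb46 was lost in cells thinned to 2000 UMIs. All 8 measured genes of the dendritic cell list were lower in Mac1, with a median log2 ratio of -3.93. Mono1 resembled Mac1 here: 0 of 5 measured members were called in that comparison.

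General macrophage genes separated Mac1 from DC2 but mostly not from Mono1. Of 15 identity genes, 10 were higher than in DC2 (median log2 1.78) and 3 higher than in Mono1 (median -0.05). Csf1r, the receptor for the macrophage growth factor, had 649 CPM in Mac1, 592 in Mono1 and 188 in DC2. Cd14, the co-receptor for bacterial lipopolysaccharide, had 1406, 1275 and 243 CPM. The genes higher than in both were Adgre1, Cx3cr1 and Mertk. Adgre1, which encodes the F4/80 antigen, had 199 CPM in Mac1, 93.3 in Mono1 and 4.74 in DC2, ratios of 2.14 (1.82 to 2.52) and 42.1 (22.0 to 92.5). Cx3cr1, the fractalkine receptor, had 238, 105 and 54.2 CPM. Its call against Mono1 was lost without the cells that held 3 or more UMIs of markers of other cell types, and that of Mertk, a kinase for the uptake of dying cells, after thinning to 2000 UMIs. Lyz2, lysozyme, stood lower than in Mono1 without being called, with 8815 CPM against 15297, and 1347 in DC2.

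Complement differed from DC2 beyond C1q, and from Mono1 in few genes beyond it. Of 12 measured complement genes and receptors 5 were higher than in Mono1 (median log2 0.88), and of 11 measured against DC2 7 were higher (median 1.96), with 0 lower in either. The 3 C1q chains, 2 of them markers given for the class, are among these 5 and 7. The remaining calls against Mono1 were C3ar1 and Itgax, a chain of a complement receptor, which had 149 against 72.8 CPM, a ratio of 2.04 (1.70 to 2.47). Its call was lost with equal weight per cell, after thinning and without cells that held markers of other cell types. C3ar1, the receptor for the C3a fragment, had 192 CPM in Mac1, 33.1 in Mono1 and 1.58 in DC2, where 3 UMIs give a ratio of 121 (41.4 to 591). C5ar1, the receptor for C5a, had 302, 163 and 19.5 CPM, and was called against DC2 alone. The Fc gamma receptors, which bind antibody-coated particles, showed no call against Mono1 (0 of 5, median -0.37), whereas 4 of 5 were higher than in DC2 (median 1.53), among them Fcgr3 with 329 CPM against 71.1.

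Genes of lipid handling were mostly higher in Mac1 than in either class. Any call of Trem2, a lipid receptor and a given marker, in the counts below follows from the choice of markers. Of 20 measured genes on a list of lipid-associated macrophages, 12 were higher and 1 lower than in Mono1 (median log2 1.34), and of 19 against DC2, 17 were higher and 1 lower (median 2.52); the gene lower against both was Fabp5, a fatty acid carrier, whose call against Mono1 was lost without cells that held markers of other cell types. Spp1 had 5842 CPM in Mac1, 397 in Mono1 and 137 in DC2, ratios of 14.7 (13.7 to 15.8) and 42.5 (37.6 to 48.2). Apoe, the apolipoprotein that carries cholesterol out of cells, had 5675, 2227 and 152 CPM. Cd9, a tetraspanin, had 1071, 160.4 and 185 CPM, and Ctsd, the lysosomal protease cathepsin D, 947, 375 and 146. Spp1 was not particular to Mac1 within the vessel: the smooth muscle class VSMC_2 held 8219 CPM of it.

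**Figure D2:**
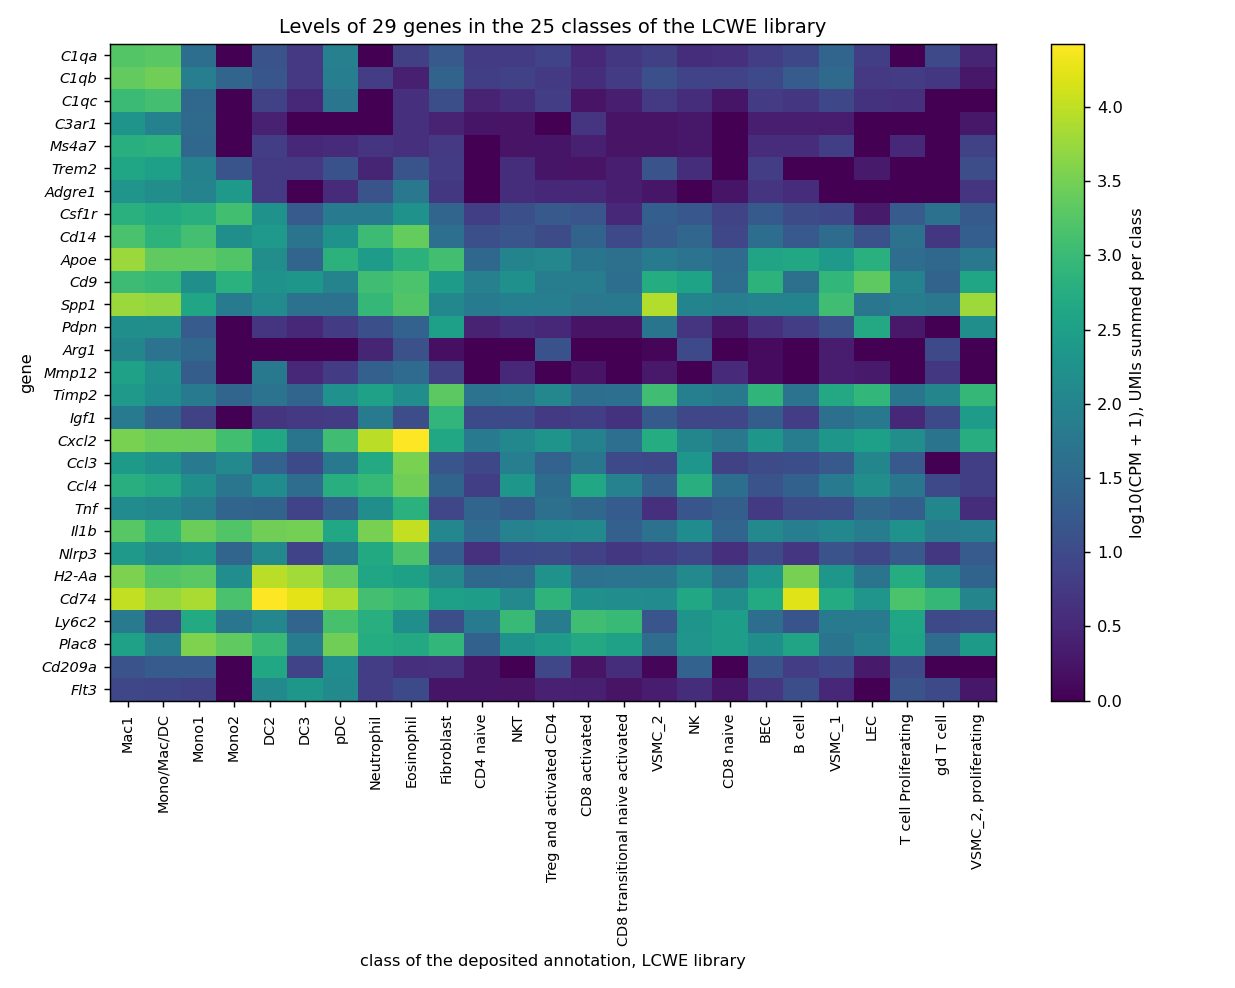
Colour gives log10(CPM + 1) of 29 genes (rows) in the 25 classes of the LCWE library (columns), from UMIs summed per class. The C1q genes and Ms4a7 are bright in Mac1 and in the 22-cell Mono/Mac/DC class, whereas Spp1 is bright in VSMC_2 as well.

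The lysosomal list followed the same order with smaller ratios. Of 21 genes 4 were higher than in Mono1 (median log2 0.34) and 9 higher than in DC2 (median 0.72), and 0 were lower. Ctsb, cathepsin B, had 1283, 838 and 293 CPM in Mac1, Mono1 and DC2. Receptors for debris and dying cells were higher more widely: of 17, 7 were higher and 2 lower than in Mono1 (median 0.83), and 15 higher with 0 lower against DC2 (median 2.53). Pdpn, podoplanin, a mucin-like ligand of the platelet receptor CLEC-2, had 162 CPM in Mac1, 17.7 in Mono1 and 3.69 in DC2, ratios of 9.15 (6.57 to 13.1) and 44.0 (21.2 to 110.0). Axl, a kinase that recognises dying cells through Gas6, had 188, 55.0 and 32.6 CPM. The lectin Clec4n (dectin-2), which binds fungal mannans, was higher than in both (735, 224 and 127 CPM), while Clec4e (Mincle), a receptor for glycolipids of mycobacteria, was lower than in Mono1 (246 against 493 CPM). The Clec4e call was lost when each cell had equal weight, without sub-cluster 5 described further on, and without cells with markers of other cell types.

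The list of genes known from macrophages that reside in vessels summed to 885 CPM in Mac1, 609 in Mono1 and 333 in DC2. Of 16 such genes 10 were measured against Mono1, of which 6 were higher and 1 lower (median log2 1.26), and of 10 measured against DC2 9 were higher and 1 lower (median 2.12), while Cd163, Vsig4 and Cd209f had 0 UMIs over all Mac1 cells. A count of 0 leaves room for 3 UMIs, or 1.01 CPM. Lyve1, a hyaluronan receptor, was counted 5 times in all, Timd4 1 time and Folr2 21 times. Pf4, the platelet factor 4 chemokine, which belongs to the same list, had 179 CPM against 2.33 in Mono1 and 2.11 in DC2. F13a1, coagulation factor XIII, was the member lower than in Mono1, with 51.4 against 256 CPM.

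Antigen presentation placed Mac1 near Mono1 and below DC2. All 8 measured class II genes were lower than in DC2 (median log2 -1.47), and 0 of 8 were called against Mono1 (median 0.27). Cd74, the class II chaperone, had 10516 CPM in Mac1, 7300.2 in Mono1 and 26369.9 in DC2, and H2-Aa, a class II chain, 3566, 1985 and 9295. After thinning and with equal weight per cell, H2-Aa was called higher than in Mono1. Of these 8, H2-Oa, which restrains peptide loading, stood furthest below, at 7.09 CPM against 120.0 in DC2, a 16.9-fold (10.8 to 27.9) difference. H2-DMb2, a class II gene outside the list, lay further below, at 8.78 against 209.5 CPM, a 23.9-fold (16.0 to 37.0) difference. Class I genes gave 0 calls of 10 against Mono1 and 2 lower calls of 10 against DC2, both subunits of the immunoproteasome, Psmb8 and Psmb9, the latter lost after thinning. B2m, the invariant class I chain, had 2102, 2085 and 1354 CPM. Cd83, a costimulatory molecule, had 225 CPM in Mac1 and 495 in DC2, a call that was lost when each cell had equal weight.

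The inflammasome cuts pro-IL-1β and pro-IL-18 into their active forms, and IL-1 signalling is a well-studied arm of the LCWE model. Of 18 measured genes of this pathway, 0 were higher in Mac1 than in Mono1 and 3 were lower (median log2 -0.33), where 3.99% of all genes were lower. Against DC2, 3 of 16 were higher and 1 lower (median 0.13). Il1b, the cytokine itself, had 1880.2 CPM in Mac1, 2675 in Mono1 and 2959.9 in DC2, ratios of 0.703 (0.677 to 0.729) and 0.635 (0.612 to 0.659), which were not called. At 2000 UMIs it was seen in 68.2% of Mac1, 85.4% of Mono1, 90.3% of DC2 and 6.06% of T and NK cells, and without thinning in 78.4%, 93.6%, 94.9% and 11.6%.

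The sensor Nlrp3 stood at 238 CPM in Mac1, 186 in Mono1 and 119.5 in DC2, just under a ratio of 2 over DC2 at 1.99 (1.71 to 2.32), and called there when each cell had equal weight, when free RNA was subtracted and without sub-cluster 5. The adaptor Pycard (ASC) had 173, 217 and 245 CPM, the protease Casp1 33.4, 53.6 and 36.9, and the pore-forming Gsdmd 43.6, 69.5 and 51.6, none of them called. With the level of T and NK cells subtracted as free RNA, these 3 were called lower than in Mono1. The kinase Nek7, which licenses NLRP3, had 44.6, 40.1 and 34.2 CPM, and the other sensors Nlrc4 6.08, 8.86 and 4.74 and Aim2 28, 29.4 and 21.6, again without a call. The genes lower than in Mono1 were Mefv (pyrin, another inflammasome sensor), at 31.1 against 126 CPM, Casp4 (caspase-11, the sensor of intracellular lipopolysaccharide), at 40.2 against 114, and Il18, at 18.2 against 48.5. Relative to DC2, Mac1 was higher in the antagonist Il1rn (246 against 70.5 CPM), in Il1a (22.3 against 3.16) and in Txnip, an inhibitor of thioredoxin (115 against 48.4). The calls of Il1a and Txnip were lost without cells that held markers of other cell types. The decoy receptor Il1r2 was lower than in DC2, at 154 against 505 CPM. The signalling receptor Il1r1 (4.39 CPM), its partner Il1rap (15.9 CPM) and the IL-18 inhibitor Il18bp (4.05 CPM) were low in Mac1 and not called against Mono1, where they stood at 3.26, 18.2 and 5.13 CPM.

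Receptors and signalling proteins that sense bacterial walls were lower than in Mono1 in 5 of 18 cases and higher in 0 (median log2 -0.60), and higher than in DC2 in 9 and lower in 2 (median 0.75). Tlr2, the receptor for bacterial lipoproteins, had 377 CPM in Mac1, 432 in Mono1 and 96.3 in DC2. Myd88, the adaptor that Toll-like receptors and the IL-1 receptor share, had 47.3, 106 and 81.6 CPM and was lower than in Mono1. Type I interferon response genes followed the same order against Mono1, with 5 of 16 lower and 0 higher (median -0.75), and gave 0 calls against DC2 (median 0.16). Ifi204, an interferon-inducible DNA sensor, had 105 CPM in Mac1 and 241 in Mono1. The calls of Ifi204 and Myd88 against Mono1 were lost after thinning to 2000 UMIs.

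Chemokines were higher in Mac1 than in either class in most cases. Of 19 measured, 13 were higher and 2 lower than in Mono1 (median log2 1.94), and 13 higher with 0 lower against DC2 (median 2.63). Some chemokines rest on few Mac1 cells: the top 3 cells held 97.0% of the UMIs of Ccl17, 98.3% of Cxcl9, 92.6% of Ccl22 and 51.8% of Ccl12. Without cells that held markers of other cell types, the log2 ratio of Cxcl9 against Mono1 was -2.96. Ccl4 and Ccl3, chemoattractants of monocytes and T cells, had 619 and 256 CPM in Mac1, 161 and 66.7 in Mono1, and 143 and 23.2 in DC2. Ccl12, a ligand of CCR2, had 122 CPM against 18.2 in Mono1. It had 0 UMIs in DC2, and with 3 UMIs over the class set in their place the ratio was 77.2, which is not a lower bound. Cxcl16, which binds CXCR6 on T cells, had 675, 274 and 389 CPM. Cxcl2, a chemokine for neutrophils, had 3447 CPM in Mac1 and 2554 in Mono1, a ratio of 1.35 (1.31 to 1.40) that was not called, and 444 in DC2, a ratio of 7.76 (7.23 to 8.33).

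Among 14 cytokines 5 were higher and 3 lower than in Mono1 (median log2 0.47), and 8 were higher than in DC2 with 0 lower (median 1.23). Tnf had 134, 72.3 and 24.7 CPM in Mac1, Mono1 and DC2, a ratio of 1.85 (1.53 to 2.24) over Mono1, and Tnfsf12, the ligand TWEAK, 87.5, 36.8 and 16.8. Tnf was called over Mono1 after thinning, with equal weight per cell, with free RNA subtracted and without sub-cluster 5. Mif, the macrophage migration inhibitory factor, had 347, 134 and 164 CPM and was called against both. Targets and regulators of NF-κB gave 1 higher call of 15 against Mono1, a share near the 7.95% of all genes. It was Bcl2a1b, an inhibitor of apoptosis, with 476 against 146 CPM.

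Genes that remodel the vessel wall differed by member. Of 16 metalloproteinases and inhibitors, 3 were higher and 3 lower than in Mono1 (median log2 0.42), and of 15 against DC2, 11 were higher and 2 lower (median 1.44). Mmp12, a marker given for the class, is among the higher genes in both counts. Besides it, Timp2, an inhibitor of metalloproteinases, was higher than in both classes, with 236, 63.0 and 47.9 CPM. Mmp8, the neutrophil collagenase, was lower than in Mono1, with 4.05 against 45.2 CPM. Of 18 growth factor and matrix genes, 6 were higher and 1 lower than in Mono1 (median 0.68), and of 17 against DC2, 11 were higher and 0 lower (median 1.22). Igf1, an insulin-like growth factor, had 69.3, 6.06 and 3.69 CPM, and Fn1, fibronectin, 1049, 742 and 122. Coagulation genes split: Plau, the urokinase protease, was higher than in Mono1 (21.3 against 3.73 CPM), while Thbs1, the matrix protein thrombospondin 1, was lower (351 against 1383), as was F10, coagulation factor X (36.8 against 232). After thinning to 2000 UMIs the call of Plau was lost. In that list 3 of 10 were higher and 4 lower than in Mono1 (median -0.31), against 7 higher and 0 lower relative to DC2 (median 1.75).

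Of the 11 genes of alternative activation measured against Mono1, 6 were higher and 1 lower (median log2 1.40), and of 12 against DC2, 6 were higher and 3 lower (median 0.85). Arg1, arginase 1, had 106 CPM in Mac1, 29.8 in Mono1 and 0 UMIs in DC2, where 3 UMIs set in their place give a ratio of 67.2. It came from 36 Mac1 cells, of which the top 3 held 59.2% of the UMIs. Retnla, another gene of alternative activation, had 291 UMIs in 3 Mac1 cells, with 67.7% in 1. Mrc1, the mannose receptor, had 48.0, 18.2 and 18.4 CPM. Against Mono1 the call of Arg1 was lost after thinning and that of Mrc1 without cells that held markers of other cell types. Hmox1, which breaks down haem, was lower than in Mono1 and higher than in DC2 (158, 476 and 40.5 CPM). In the glycolysis list 2 of 20 genes were higher than in Mono1 (median 0.50), a share near the 7.95% of all genes, and 7 higher than in DC2 (median 0.77), among them Aldoa, aldolase, with 769, 383 and 276 CPM, whose call against Mono1 was lost after thinning, with equal weight per cell and without sub-cluster 5.

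Of 25 transcription factors of the lineage, 3 were higher and 1 lower than in Mono1 (median log2 -0.03), near the 7.95% and 3.99% of all genes. Relative to DC2, 11 of 24 were higher and 1 lower (median 0.82), where 11.3% and 4.92% of all genes were called. The 3 higher than in Mono1 were Cebpa, a myeloid factor, with 117, 50.4 and 28.4 CPM, Pparg, a lipid-sensing nuclear receptor, with 13.5, 4.20 and 1.58, and Mitf, a regulator of lysosomal genes, with 32.4, 14.9 and 11.1. After thinning to 2000 UMIs the calls of all 3 against Mono1 were lost. Immediate early genes, which also respond to dissociation of tissue, gave 2 higher calls of 19 against Mono1 (median 0.12), near the 7.95% of all genes, and 6 against DC2 (median 0.79), with 0 lower. Among them Fos had 1426, 1007 and 680.2 CPM.

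Enzymes that make prostaglandins, thromboxane and leukotrienes were higher than in Mono1 in 4 of 10 cases (median log2 0.40) and higher than in DC2 in 6 of 11 (median 1.74), with 0 lower. Tbxas1, thromboxane synthase, had 35.1, 11.7 and 10.5 CPM, and Ptgs2, the inducible cyclooxygenase, 116, 180.5 and 74.2. Of 12 oxidative burst genes, 1 was higher and 1 lower than in Mono1 (median -0.22), near the 7.95% and 3.99% of all genes, and 6 were higher than in DC2 with 0 lower (median 1.02). The higher one was Prdx1, a peroxidase, with 1473, 613 and 494 CPM, a call against Mono1 that was lost after thinning. Interferon gamma response genes gave 1 higher and 2 lower calls of 15 against Mono1 (median -0.69), where 7.95% and 3.99% of all genes were called. Against DC2 they gave 2 higher and 1 lower of 16 (median -0.17), near the 11.3% and 4.92% of all genes.

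**Figure D3:**
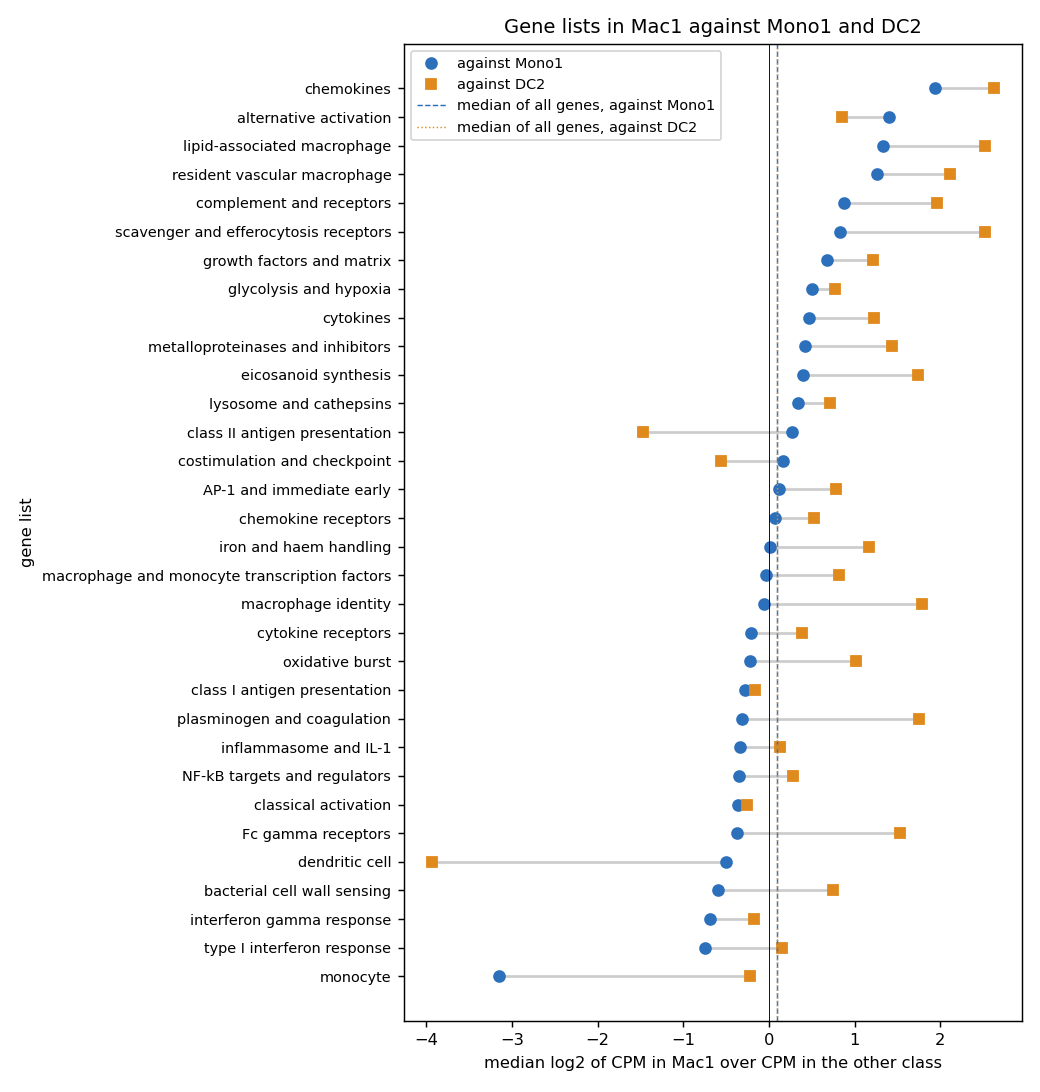
For 32 gene lists (rows) the circle gives the median log2 ratio of Mac1 over Mono1 and the square that over DC2; the dashed and dotted lines mark the medians of all tested genes, 0.09 in both comparisons. The dendritic cell list lies lowest against DC2 (-3.93) and the monocyte list lowest against Mono1 (-3.15). The chemokine list lies highest in both (1.94 against Mono1 and 2.63 against DC2). The given markers are not drawn.

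Against all other cells of the LCWE library together, 924 of 14380 tested genes were higher in Mac1 (6.43%) and 3314 lower (23%), with a median log2 ratio of -0.21. The lower genes with the largest ratios, such as Cd248 and Fbn1 (fibrillin 1), are genes of fibroblasts, which make up 813 of the cells. The share of a gene's UMIs in the library that came from Mac1 cells was also taken. It depends on the size of a class as well as on the level in its cells. Of 5906 genes with at least 50 UMIs in Mac1, 26 had over 50% of their library UMIs there and 151 over 25%.

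C1qa had 81.1% (80.1 to 82.0) of its UMIs in Mac1, Ms4a7 79.9% (78.2 to 81.6), C1qb 78.7% (77.8 to 79.5) and C3ar1 79.3% (76.2 to 82.2) (95% exact Clopper-Pearson intervals). These shares rest on many cells: 204 Mac1 cells held C1qa, 163 Ms4a7, 210 C1qb and 185 C3ar1. Some genes above them rest on few cells. Retnla, a secreted protein of alternative activation, had 97.7% (95.2 to 99.1) of its UMIs in Mac1, all in 3 cells and 67.7% of them in 1. Pf4 had 83.4% (80.2 to 86.2) in 71 cells, of which 1 held 25.4%, and Ccl12 had 83.4% (79.5 to 86.8) in 49 cells, of which 1 held 22.7%.

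**Figure D4:**
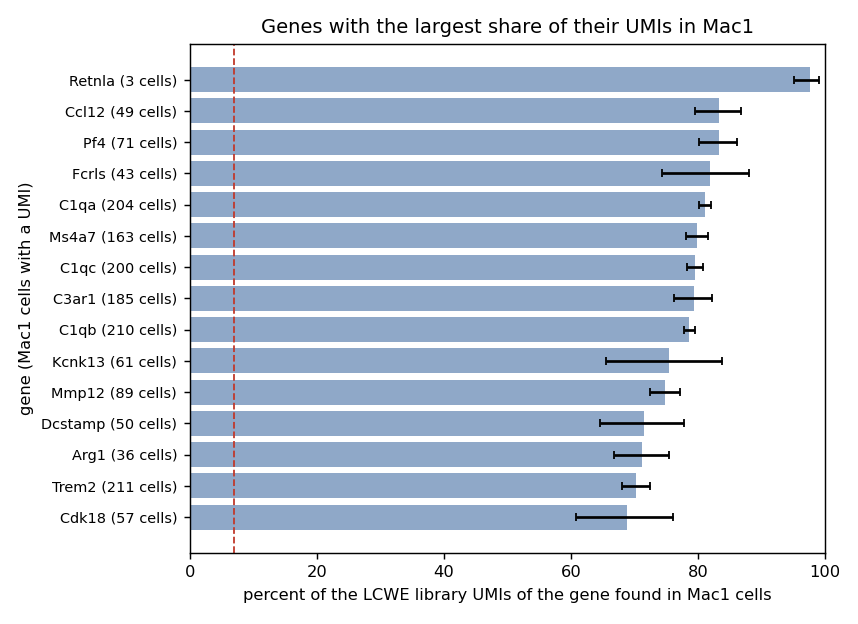
Bars give the percent of a gene's UMIs in the LCWE library that came from Mac1 cells for the 15 genes with the largest share, with 95% exact intervals and the number of Mac1 cells with a UMI in parentheses; the dashed line marks the 7.00% of all UMIs that Mac1 held. The bars run from 97.7% to 68.8%, but Retnla rests on 3 cells and Arg1 on 36.

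Over the 25 classes of at least 20 cells, 113 of the 5906 genes (1.91%) had their highest CPM in Mac1. For 51 of them the next class was Mono/Mac/DC, a class of 22 cells with a median of 18983 UMIs, for 10 it was Mono2, for 9 the class named LEC and for 8 Mono1. In the Mono/Mac/DC class C1qa stood at 1972 CPM and Ms4a7 at 684, above the 1762 and 583 CPM of Mac1. Neither of these given markers is thus among the 113 genes. Whether those 22 cells are single cells was not tested.

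Markers of other cell types were counted in Mac1, most of all those of red cells. The summed level of 6 fibroblast markers was 650.4 CPM in Mac1, 477 in Mono1, 535 in DC2 and 572 in T and NK cells, against 66977 in fibroblasts, so it was near the level found in cells that should lack them. Of the fibroblast UMIs in Mac1, 721 lay in 1 cell. T cell markers summed to 122 CPM in Mac1, 190.3 in Mono1 and 172 in DC2, against 2479 in T and NK cells, and 22 Mac1 cells held at least 3 of those UMIs. Smooth muscle markers summed to 179 CPM in Mac1 against 72.8 in Mono1 and 44.2 in DC2, but 10 cells held at least 3 UMIs and 1 cell held 253. The endothelial markers summed to 148 CPM in Mac1, 144 in Mono1 and 36.9 in DC2, with at least 3 UMIs in 11 Mac1 cells. Haemoglobin and Alas2, the red cell list, summed to 4646 CPM in Mac1, 5305 in Mono1, 1443 in DC2 and 3253 in T and NK cells, and every Mac1 cell held at least 3 UMIs. These sums rest partly on single cells: the highest count in 1 cell was 4100, 4138, 311 and 2180 UMIs in the same order. The median per cell was 13, 11, 11 and 11 UMIs. Of 5 eosinophil markers Ccr3, Prg2, Epx and Il5ra were at 0. The class annotated as eosinophils itself had 3 of the 5 at 0 and a sum of 63.1 CPM, so these zeros say little. The part of these transcripts in the differences above was not tested.

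Mac1 cells differed widely among themselves. To compare them at equal depth, 253 cells were thinned to 4814 UMIs, and 29 shallower ones were left out. Of 5187 genes with a mean of at least 0.1 UMIs, 400 had a variance of at least 2 times the mean (the value expected of pure counting is 1), and the median was 1.10. The haemoglobin gene Hbb-bs led with 278, followed by Retnla (156) and Spp1 (101). Apoe (79.1), Cd74 (72.5), Lyz2 (43.7) and the class II genes H2-Ab1 (31.9), H2-Eb1 (31.1) and H2-Aa (30.6) were among the first 15. Abundant genes can reach higher values by this measure than scarce ones.

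C1q was not counted in many cells. Of the 253 thinned cells, 60 (23.7%) had 0 UMIs of the 3 chains together, 158 had 10 or more, the median was 20 and the highest 136. Spp1 had 10 or more UMIs in 93 cells and 0 in 68, with a median of 4 and a maximum of 332. In 36 cells 10 or more Spp1 UMIs went with 0 of C1q, and in 45 cells both reached 10. Across the 253 cells, which share 1 library and 1 depth, Spearman's rho was -0.265 between C1q and Spp1, -0.589 between Spp1 and the class II sum, and 0.612 between Spp1 and Cd9. It was 0.437 between class II and the monocyte list and 0.386 between class II and Il1b. These correlations describe the cells and carry no test.

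To see which genes went with C1q, the 84 cells with the most C1q (33 UMIs or more) were set against the 84 with the least (6 or fewer); 4 cells lay at each bound. This cuts a range and does not define cell types. Their median depth was 7991.5 and 10038 UMIs. Without the C1q genes, 275 of 6976 genes (3.94%) were higher and 298 (4.27%) lower in the C1q-rich cells. The genes named in the next sentences were picked after their values were seen.

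Cells rich in C1q had more Apoe (10728 against 1503 CPM) and more Ms4a7 (1158 against 127 CPM), 7.14-fold (6.75 to 7.55) and 9.09-fold (7.52 to 11.1) differences. Selenoprotein P, listed as Sepp1, a selenium carrier of mature macrophages, stood at 532 against 75.2 CPM, and Adgre1 at 324 against 74.1. Among 19 chemokines 3 were higher and 7 lower in the C1q-rich cells (median log2 -0.47), and Ccl4 was one of the higher, with 989 against 228 CPM. Of 7 measured genes of resident macrophages, 5 were higher in the C1q-rich cells and 1 lower (median log2 1.88). All 5 red cell genes were also higher there (median 1.73), a measured fact that moves with this split and whose part in it was not tested. Over all of Mac1, 1 cell held 4100 red cell UMIs, where the median per cell was 13.

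Cells poor in C1q had more Spp1 (11295 against 3485 CPM), Fn1 (1749.9 against 494 CPM), Thbs1 (489 against 154) and Mmp12 (645 against 243). The Spp1 difference was 3.24-fold (3.11 to 3.38). Slc7a11, the cystine transporter that feeds glutathione synthesis, had 458 against 104 CPM, and Vegfa, the endothelial growth factor, 209 against 55.0. Of 20 glycolysis genes, 7 were lower in the C1q-rich cells and 0 higher (median log2 -0.76), and of 16 growth factor and matrix genes 7 were lower and 1 higher. All 4 measured endothelial markers were lower in the C1q-rich cells (median -2.12), as were 4 of 7 monocyte genes with 0 higher (median -1.03), and the part of either in this split was not tested. The endothelial counts rest on few cells: over all of Mac1, 11 cells held at least 3 such UMIs and 1 held 116. The marker Mmp12 thus lay on the opposite side of this split from the marker Ms4a7.

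Clustering the 282 cells alone gave 5 sub-clusters, which are numbered and not named as cell types. Sub-cluster 1 held 104 cells with a median of 7777 UMIs. Its leading genes by ratio over the other Mac1 cells included Nes (53.8 against 6.65 CPM), Cxcr3, a chemokine receptor best known on T cells (42.8 against 6.65), and Hpgds, a prostaglandin D synthase (52.8 against 12.8). By CPM, summed markers of some other cell types stood higher there than in the rest of Mac1. Fibroblast markers summed to 1378 CPM (221 to 342 in the other sub-clusters) and smooth muscle markers to 431 (37.3 to 73.7). Endothelial markers summed to 375 (19.8 to 60.1) and the red cell list to 7010 (1241 to 5818). Per cell the red cell list came to 67.7 UMIs, close to the 66.9 of sub-cluster 2, and 1 cell of Mac1 held 4100. Single cells weigh on these sums: 1 cell held 721 fibroblast UMIs, 1 held 253 of smooth muscle and 1 held 116 of endothelium. At least 3 fibroblast UMIs were counted in 64 of the 104 cells. In sub-clusters 2 to 5 this held for 41 of 79, 24 of 44, 21 of 34 and 15 of 21 cells. Their part in its leading genes was not tested. Its thinned cells had a median of 37.5 C1q UMIs, the highest of the sub-clusters. Since the same genes made the sub-clusters, their differences are descriptions.

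Sub-cluster 2 held 79 cells with a median of 10880 UMIs. Spp1 and Pdpn were among its leading genes, Spp1 with 14696 CPM against 1923 in the other Mac1 cells and Pdpn with 365 against 72.6. The sugar kinase Hk3 (47.4 against 3.90 CPM) and the syndecan Sdc1 (76.0 against 18.0) were others, and Cd9 (1884 CPM), Arg1 (309 CPM) and Aldoa (1371 CPM) stood above their levels in Mac1 as a whole. Its thinned cells had a median of 1 C1q UMI, 41.5 Spp1 UMIs and 2 class II UMIs, with 0 C1q UMIs in 36 of 76.

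Sub-cluster 3 (44 cells, median 7126.5 UMIs) combined macrophage and monocyte transcripts. Its leading genes included Plac8 (1362 against 195 CPM), Ifitm6 (104 against 8.48), the transcription factor Maf (199 against 38.2) and the chemokine Ccl6 (855 against 167). Its thinned cells had a median of 26.5 C1q UMIs, 207 class II UMIs and 11 UMIs of the monocyte list, which had medians of 1 to 4 in the other sub-clusters. Spp1 was at a median of 0 there.

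Sub-cluster 4 (34 cells, median 8521 UMIs) had the highest class II median, 252 thinned UMIs, with a C1q median of 3. Il1r2, the IL-1 decoy receptor, stood at 682 CPM there and at 86.8 in the other Mac1 cells, and Il1b at 4663 against 1528. The median of thinned Il1b UMIs was 14.5 in sub-cluster 4, 9.5 in sub-cluster 3, 4 in sub-cluster 1 and 3 in sub-clusters 2 and 5. H2-Ab1 was also among its leading genes (8851 against 2735 CPM). The 8 dendritic cell markers summed to 303 CPM in sub-cluster 4, against 25.3 to 129 in the other sub-clusters and 1116 in DC2, and their part in these differences was not tested. Of the IL-1 transcripts in Mac1, the ligand and the decoy receptor were thus both highest in these cells.

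Sub-cluster 5 (21 cells) had T cell genes in front: Lck, the T cell receptor kinase, at 141 against 1.53 CPM, and Cd3d, a chain of that receptor, at 310.1 against 3.83. In 20 of its 21 cells at least 3 T cell marker UMIs were counted, and in 2 cells of the other sub-clusters. Its median depth was 14602 UMIs and its median doublet score, as the authors deposited it, 0.159, against 0.0258 to 0.0519 in the other sub-clusters. Whether these are pairs of cells was not tested.

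**Figure D5:**
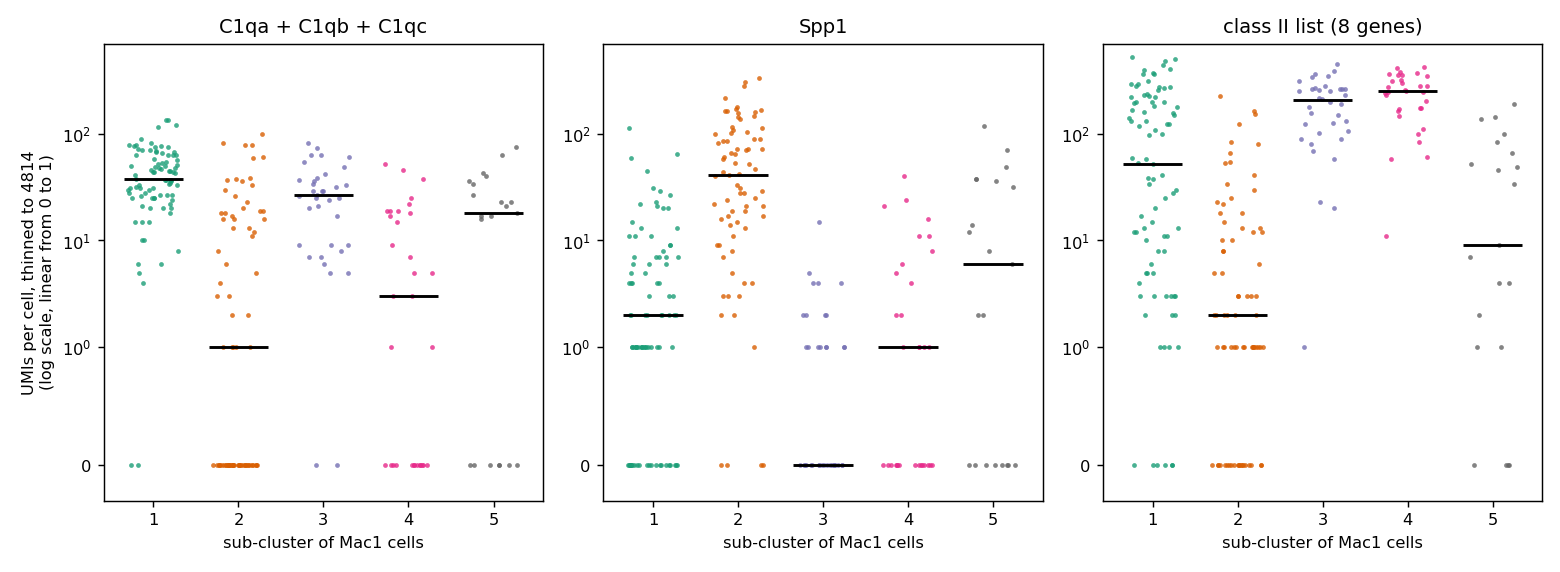
Each point is a Mac1 cell thinned to 4814 UMIs, placed by its sub-cluster (horizontal axis); the 3 panels give UMIs of the C1q genes, of Spp1 and of the class II genes on a log scale that is linear from 0 to 1, and black lines mark medians. Sub-clusters 1 and 3 have C1q medians of 37.5 and 26.5 and sub-cluster 2 a median of 1, while Spp1 shows the reverse, with 41.5 in sub-cluster 2 against 2 and 0 in sub-clusters 1 and 3.

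In the PBS library the class was rare. The deposited table names 5 of 5386 PBS cells Mac1, and the share of cells was 59.7 times (95% interval 25.3 to 185) higher in the LCWE library, from 1 library each. The authors' monocyte, macrophage and dendritic cell classes together differed likewise, with 18 cells (0.334%) in PBS and 908 (17.8%) in LCWE. The higher share is thus not particular to Mac1. The smooth muscle class VSMC_1 made up 76.9% of PBS and 1.83% of LCWE cells, and shares within a library depend on each other. The 5 Mac1 cells of PBS carried C1qb (93 UMIs in 4 cells, 1254 CPM) and C1qa (53 UMIs in 3 cells, 715 CPM). Trem2 and Spp1 had 0 UMIs there, against 398 and 5842 CPM in the LCWE Mac1 cells. Retnla had 762 UMIs in 4 of the 5 cells (10273 CPM), Mrc1 377 CPM and F13a1 364 CPM, next to 98.3, 48.0 and 51.4 in LCWE. Il1b was at 1483 CPM in the PBS cells and 1880.2 in LCWE. Of the PBS cells 1 held 524 of the 762 Retnla UMIs and 1 held 23 of the 27 F13a1 UMIs. With 5 cells no ratio of a gene's level between the conditions is given.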

How the data were processed

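The values are counts per gene and cell (UMIs), deposited by the authors without normalization. Cell Ranger 3.0.2 and the build mm10 are named in the submitters' processing notes. The authors also deposited a cell table with class names, the percent of mitochondrial UMIs and a doublet score per cell, which comes from a caller the table does not name. Its calls of doublets and dead cells are negative for all 10477 cells, so no cell was removed here. The joint matrix was checked against the single libraries, and 0 of 293335046 entries differed.

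UMIs were summed per class and divided by the class total. Sums under 3 UMIs were raised to 3 for log2 ratios and list medians. Intervals are exact at 95% and cover counting error only. Cells were thinned without replacement to 2000 UMIs for shares of cells and to 4814 UMIs for variability. Sub-clusters were made with scanpy 1.11.5 by Leiden clustering at resolution 0.5 from 20 principal components of 2000 variable genes and 15 neighbours, and their leading genes were the 12 with the highest ratio that had an interval beyond 1.5-fold. The ratio and variance steps were tested on simulated data. Positions come from GENCODE vM21 (GRCm38) and promoters from RefSeq (GRCm38.p6).

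Named genes were the 5 markers and, for Mac1 against Mono1, DC2 and all other LCWE cells, the 10 highest and 10 lowest ratios. These needed at least 50 UMIs in the higher class, a UMI in 10% of its cells, an interval beyond 1.5-fold and no cell with over 20% of those UMIs. This ranking left out other cell types' markers, sex-linked genes, antigen receptor and haemoglobin genes, and those of ribosomes and mitochondria. The 15 genes with the largest share of their UMIs in Mac1, the 15 most variable, up to 6 members of each list by UMIs and all inflammasome and IL-1 genes were added. The text gives a part of these, and some items are not reported here. Ccl6, Cebpa, Cxcr3, Fabp5, Folr2, Hk3, Hpgds, Itgax, Lyve1, Timd4, Maf, Mertk, Mitf, Pparg, Psmb9, Sdc1, Slc7a11 and Vegfa are named outside the rule, after their values were seen. The members and the gene lists were chosen with earlier results of these data known. Clec7a, Trbc1 and Trbc2 were not matched and are not analysed here. Alternatives were equal weight per cell, removal of cells over 10% mitochondrial UMIs or with 3 or more UMIs of other cells' markers, other filters and depths, and subtraction of the level in T and NK cells as free RNA.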

Additional observations from a re-analysis of the deposited data

How the results depend on the processing

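Genes higher and lower than in Mono1 numbered 743 and 373. At a minimum of 100 UMIs they were 287 and 179, and in cells thinned to 2000 UMIs 346 and 235; fewer genes can pass either setting. Against DC2 the counts of 1051 and 457 became 466 and 210 at 100 UMIs and 492 and 288 after thinning. Without cells holding 3 or more UMIs of other cells' markers, which left 107 of 282 Mac1 cells, 442 were higher than in Mono1 and 654 higher than in DC2. With free RNA subtracted, 669 were lower than in Mono1 and 785 lower than in DC2, and 2062 rather than 924 higher than in all other LCWE cells; this subtracts the level of T and NK cells, which are part of the latter. In thinned cells 1615 rather than 3314 genes were lower than in all other cells. Among classes of at least 50 cells, 255 genes rather than 113 were highest in Mac1, since smaller classes drop out. Variable genes numbered 155 rather than 400 at 2000 UMIs, and resolutions of 0.3 and 1.0 gave 4 and 8 sub-clusters rather than 5, with 79 and 48 of the 79 cells of sub-cluster 2 kept together.

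For the genes named, 6 calls changed direction. Without cells with other cells' markers the log2 ratio of Cxcl9 became -2.96 against Mono1 and -2.18 against all other LCWE cells, that of Ccl17 -1.58, of Ccl22 -1.92 and of Ctsk 0.18, the last 3 against all other cells. Without sub-cluster 5, an alternative chosen after seeing the data, Ccl22 became -0.0175. These genes rest on few cells. Calls for C1qa, C1qb, C1qc, Ms4a7, Trem2, Mmp12, Spp1 and Apoe against Mono1 and DC2 held under the alternatives run. No paired analysis was possible because each group is 1 library. Differences between mice, and genes under 20 UMIs in both classes together, are beyond what this depth and design can show.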

Other observations

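Several secreted factors of Mac1 came from a handful of cells, and they are given as values with no explanation. They were picked after their values were seen. Ccl17, a ligand of CCR4 on T cells, had 132 UMIs in 6 of the 282 cells, of which 1 cell held 61.4%. Ccl22, a ligand of the same receptor, had 121 UMIs in 11 cells, with 65.3% in 1. Cxcl9, an interferon-induced ligand of CXCR3, had 115 UMIs in 4 cells, with 66.1% in 1. Cxcl3, a neutrophil chemokine, had 575 UMIs in 42 cells, with 32.7% in 1. Cxcl10, which also binds CXCR3, had 429 UMIs in 68 cells, with 24.2% in 1. The class level of these genes therefore depends on few cells, and counting intervals do not cover that. Among proteins of tissue breakdown and its inhibition, Ctsk, the collagen-degrading cathepsin K, had 88 UMIs in 13 cells with 79.5% in 1, and Slpi, an inhibitor of serine proteases, had 347 UMIs in 34 cells with 45.8% in 1. By contrast, Mmp12 was counted in 89 cells, and its top cell held 10.2% of 993 UMIs.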
